A study of Mus musculus with 2 samples.

Results

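The genes described are 9 that make, move, degrade or sense the inhibitory transmitter GABA or set the chloride gradient it works on: Gad1, Gad2, Abat, Slc32a1, Slc6a11, Gabbr1, Gabbr2, Slc12a2 and Slc12a5. They are listed by symbol, under a rule that uses no measured value, out of 19503 genes with a value in the table, and all 9 were found, each with 1 probe set. RNA came from pooled cerebella of Tg(Pcp2-L10a-Egfp) mice at postnatal day 7, a line that makes the ribosomal protein L10a with a green fluorescent tag under the promoter of the Purkinje cell gene Pcp2. The TRAP sample (translating ribosome affinity purification) is the RNA recovered from beads carrying antibodies to that tag, and the unbound sample is the RNA the beads left in solution. Both samples are of the same transgenic line, age and tissue, with no treatment, and mice without the transgene or unfractionated RNA were not analysed here. The number of animals pooled is not given in the sources used here, nor whether both samples came from 1 pool. Each fraction was hybridised to 1 array, so there was no replicate, no test was possible, and every difference below separates 2 arrays.

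Purkinje cells are GABAergic neurons and the output of the cerebellar cortex, where basket, stellate and Golgi interneurons also use GABA. Glutamate decarboxylases make GABA from glutamate, a vesicular transporter loads it into synaptic vesicles, plasma membrane transporters clear it, and a mitochondrial transaminase breaks it down. GABA opens GABA-A receptor chloride channels and activates GABA-B receptors, which signal through G proteins. Whether opening a chloride channel excites or inhibits a neuron depends on the cotransporters that load chloride into the cell and those that extrude it, and in many young neurons the balance shifts from loading to extrusion.

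Values are the authors' log2 expression values, and a difference is always TRAP minus unbound on that scale, so that a difference of 1 is 2-fold. Over all probe sets the TRAP array had a median of 6.92, and the unbound array of 7.25. The floor used for low values is 7.08, the median of all values of both arrays together, and 10524 genes passed it on 1 array or on both. Over these the median difference was -0.13. Pcp2, whose promoter drives the tag, read 12.98 in TRAP and 11.65 in unbound. All 13 measured Purkinje cell markers on the list used here were higher in TRAP, with a median difference of 1.68. The marker lists were chosen with earlier results of these data known, so such counts are not independent checks of the purification. A gene that passes the floor through 1 array alone is bound to be higher there, so marker and gene lists are counted over all their measured genes, with no floor. Over all 19503 genes without a floor, 57.6% were higher in TRAP, 4.58% at least 2-fold so, and 11% were at least 2-fold higher in unbound. Markers of other cells were mostly higher in unbound: 12 of 13 of interneurons, 13 of 14 of astrocytes and Bergmann glia, 11 of 11 of the oligodendrocyte lineage, 11 of 11 of granule neurons, 8 of 8 of granule neuron progenitors, 4 of 4 of unipolar brush cells and excitatory nuclear neurons, 6 of 7 of choroid plexus and 7 of 8 of mural cells and fibroblasts. For microglia it was 7 of 7 and for endothelium 5 of 6, but 0 and 1 of these genes were above the floor on both arrays. Among the genes above the floor, Mycn and Sfrp1 (progenitors), Col1a2 (mural cells and fibroblasts) and Trem2 (microglia) changed sign under at least 1 other scaling. The fractions are RNA and not sorted cells, so the values measure neither the number of cells of a type nor the RNA per cell. Why the RNA of a gene was in either fraction was not tested.

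All 9 GABA genes were above the floor, 8 of them on both arrays. Slc12a2 was the exception, with its TRAP value below the floor. In TRAP 7 of the 9 were higher, and their median difference was 0.32. The share of all genes higher in TRAP was 44.1% above the floor and 57.6% without a floor, so the background to this count depended on the floor. The median difference of all genes above the floor also moved with scaling, from -0.13 to 0.25 with the array medians subtracted and 0.08 after quantile normalization. A size of 2-fold toward TRAP was reached by 1 of the 9, Slc32a1, and by 8.11% of all genes above the floor. Toward unbound it was reached by 2, Slc6a11 and Slc12a2, and by 18.6% of all genes. These shares of 9 genes are close to the background, so the counts at 2-fold do not set the group apart. Gad1 and Gabbr1 lay just short of 2-fold, and Gad2, Abat, Gabbr2 and Slc12a5 differed by less than 1.5-fold.

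**Figure D1:**
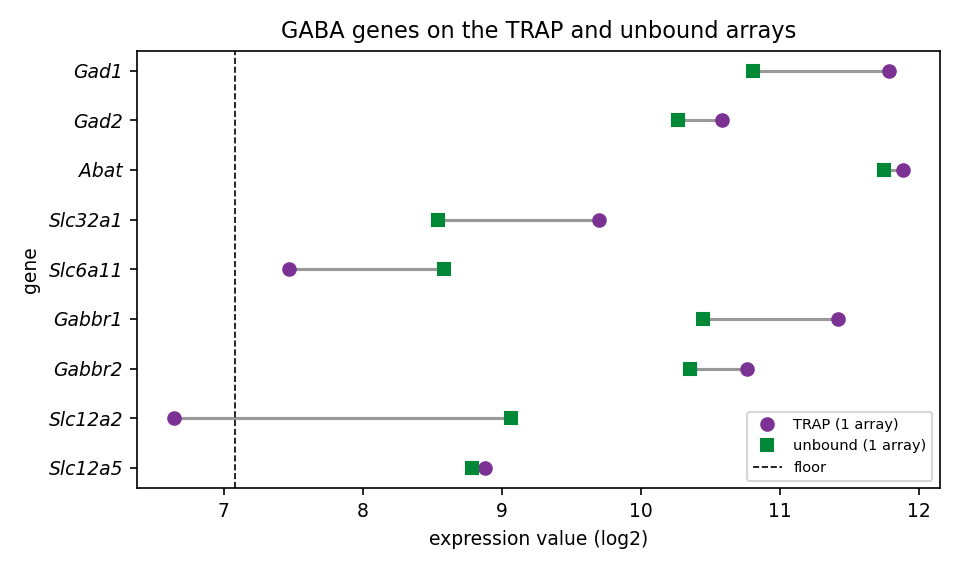
Expression value (log2, horizontal axis) of each of the 9 GABA genes on the TRAP array (circles) and the unbound array (squares), with the floor of 7.08 as a dashed line and no error bars because each fraction has 1 array. Slc32a1, Gad1 and Gabbr1 have the longest bars toward TRAP, and Slc6a11 and Slc12a2 lie the other way, with the TRAP value of Slc12a2 left of the floor.

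The enzymes of GABA synthesis differed in extent. Gad1 encodes GAD67, the decarboxylase found throughout the neuron, and read 11.78 in TRAP and 10.81 in unbound. It was therefore 1.96-fold higher in TRAP, a difference of 0.97 that exceeded those of 91.3% of genes above the floor. Gad2 encodes GAD65, the decarboxylase concentrated at nerve terminals, and had values of 10.58 (TRAP) and 10.26 (unbound), which is 1.25-fold higher in TRAP. Its difference of 0.32 exceeded those of 70.1% of genes. The difference of Gad1 was larger than that of Gad2 by 0.66, and by 0.59 after quantile normalization of the arrays and 0.60 after removal of a loess trend. With 1 array per fraction, no error can be attached to a gap of that size.

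Abat encodes GABA transaminase, the mitochondrial enzyme that starts GABA breakdown. Its values were 11.88 (TRAP) and 11.75 (unbound), and this 1.10-fold difference exceeded those of 61.8% of genes. Abat was thus nearly level between the fractions. Measured from the median difference of all genes, it stood at 0.26 as deposited and at -0.01 after quantile normalization, so even its side of the typical gene depended on scaling.

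Vesicular and plasma membrane transport went opposite ways. Slc32a1 encodes the vesicular transporter (VGAT or VIAAT) that fills synaptic vesicles with GABA and glycine, and it read 9.69 in TRAP and 8.54 in unbound. The 2.23-fold difference was the largest of the 9 toward TRAP and exceeded those of 94.4% of genes. Slc6a11 encodes GAT-3, a GABA transporter of the plasma membrane known mainly from astrocytes, and it read 7.47 in TRAP and 8.59 in unbound. It was 2.17-fold higher in unbound, and 15.9% of genes had a lower difference. Its TRAP value stood 0.39 above the floor on the log2 scale. The differences of Slc32a1 and Slc6a11 were 2.28 apart, and they were 2.14 apart after quantile normalization and 2.16 after removal of the loess trend.

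Both genes of the GABA-B receptor were higher in TRAP. Gabbr1 encodes the subunit that binds GABA and had values of 11.41 (TRAP) and 10.45 (unbound), so that it was 1.95-fold higher in TRAP, above 91.2% of genes. Gabbr2 encodes the subunit that couples to the G protein and brings the complex to the surface, and it read 10.76 in TRAP and 10.35 in unbound. That is 1.33-fold higher in TRAP, above 74.0% of genes. The receptor works as a heterodimer of these subunits, and the difference of Gabbr1 exceeded that of Gabbr2 by 0.56. The single Gabbr1 probe set does not separate the transcripts of its receptor isoforms.

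Of the chloride cotransporters, Slc12a2 was higher in unbound and Slc12a5 nearly level. Slc12a2 encodes NKCC1, which carries sodium, potassium and chloride into the cell, and read 6.64 in TRAP and 9.06 in unbound. The 5.36-fold difference was the largest of the 9 in either direction, and 1.78% of genes above the floor had a lower one. Because its TRAP value lay 0.44 below the floor and the table holds no detection calls, the size of this fold is uncertain. With the TRAP value set at the floor it would be 3.96-fold. Slc12a5 encodes KCC2, the neuronal cotransporter that extrudes chloride with potassium, and had values of 8.88 (TRAP) and 8.78 (unbound), only 1.07-fold apart. The genes for chloride uptake and chloride extrusion thus differed by -2.42 and 0.09, which are 2.52 apart. With the TRAP value of Slc12a2 set at the floor they would be 2.08 apart. The gap was 2.51 after quantile normalization and 2.43 after removal of the loess trend. None of the 6 other SLC12 family genes with a value was above the floor on either array. Their values ran from 5.00 to 6.97 in TRAP and from 4.69 to 6.99 in unbound.

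**Figure D2:**
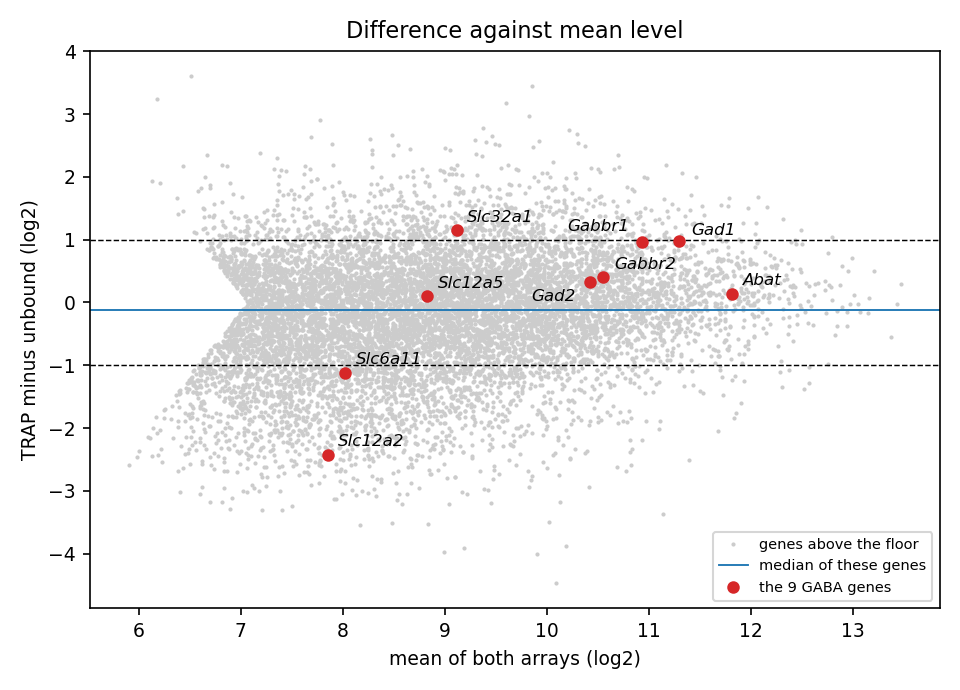
TRAP minus unbound (log2, vertical axis) against the mean of both arrays (log2, horizontal axis) for the 10524 genes above the floor (grey), with the 9 GABA genes in red, the median difference of -0.13 in blue and 2-fold as dashed lines. Slc32a1 lies above the upper dashed line, Gad1 and Gabbr1 just under it, and Slc6a11 and Slc12a2 below the lower one.

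The 9 genes were set beside the marker lists, whose genes do not include them. The 13 Purkinje cell markers had differences from 0.49 (Pcp4) to 3.17 (Gng13). Slc32a1 exceeded 4 of these markers and Gad1 and Gabbr1 exceeded 3 each, so these genes lay in the lower part of the Purkinje range. Gabbr2, Gad2, Abat and Slc12a5 lay below all 13 Purkinje markers, except that Gabbr2 (0.36) exceeded Pcp4 (0.29) after removal of the loess trend. For Slc6a11 and Slc12a2 the markers of other cells above the floor were used, many of which passed it in unbound only: 6 of 11 for interneurons, 5 of 13 for astrocytes and Bergmann glia, 4 of 10 for oligodendrocytes and 2 of 5 for choroid plexus. Slc6a11 had 7 interneuron markers and 10 markers of astrocytes and Bergmann glia below it. For Slc12a2 those numbers were 2 and 5, and 8 of the 10 oligodendrocyte markers and 4 of the 5 choroid plexus markers were higher than it. Differences of the astrocyte and Bergmann glia markers ran from -3.92 (Gfap) to 0.93 (Hopx), and those of choroid plexus from -3.37 (Ttr) to -0.56 (Folr1).

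Gad1, Gad2 and Slc32a1 are also active in cerebellar interneurons. The summed signal of all 13 interneuron markers was 10.99 in TRAP and 12.54 in unbound on the log2 scale. Of the 11 above the floor on at least 1 array, 5 were above it in TRAP. For the 14 markers of astrocytes and Bergmann glia the sums were 13.12 and 14.50, with 8 of 13 above the floor in TRAP. For the 7 markers of choroid plexus, an epithelium known to carry NKCC1, they were 10.53 and 13.14, with 3 of 5 above the floor in TRAP, and Ttr alone made up 47.6% of the TRAP sum and 80.5% of the unbound sum. The part that these cells play in the values of the 9 genes was not tested.

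**Figure D3:**
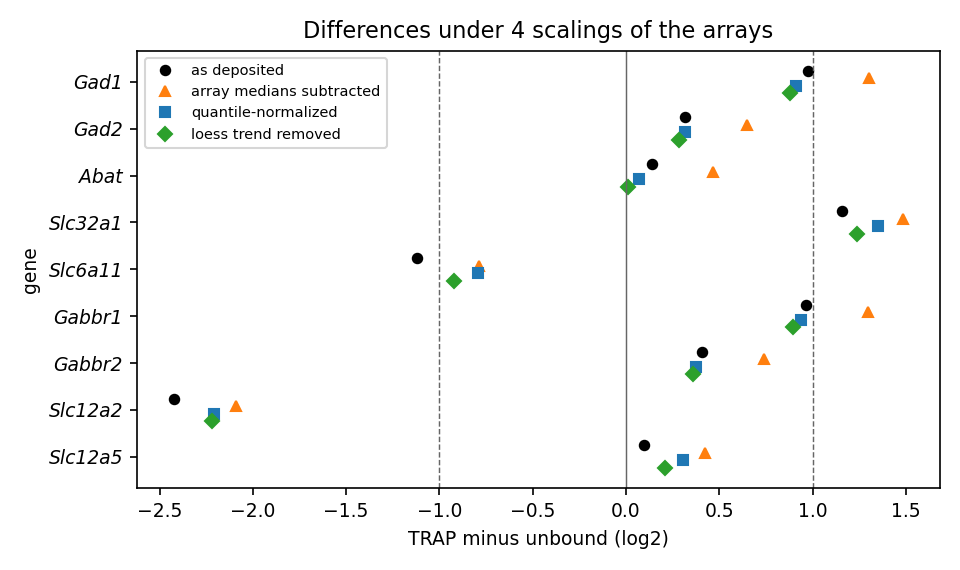
TRAP minus unbound (log2, horizontal axis) of each GABA gene as deposited and under 3 other scalings of the arrays, with 0 as a solid line and 2-fold as dashed lines. No gene crosses 0, while Gad1 and Gabbr1 pass 2-fold higher in TRAP with the array medians subtracted and Slc6a11 drops short of 2-fold under all 3.

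Signs held under the other scalings, as did the 2-fold calls of Slc32a1 and Slc12a2, while those of Gad1, Gabbr1 and Slc6a11 depended on the scaling. None of the 27 values of the 9 genes under the other 3 scalings changed sign, although Abat came to 0.01 after removal of the loess trend. Subtracting the array medians raised every difference by the same amount, so the 7 genes higher in TRAP could not change sign there. With each array's median subtracted, the median difference of all genes above the floor moved to 0.25, and 3 of the 9 genes (Slc32a1, Gad1 and Gabbr1) reached 2-fold toward TRAP against 1 (Slc12a2) toward unbound. Of all genes, 16.4% and 11.6% did so under that scaling. The split of the 9 was 1 against 1 after quantile normalization, beside 12% and 13.7% of all genes, and after removal of the loess trend, beside 9.55% and 16.3%. On the deposited values, a size of 1.5-fold gave 3 of the 9 in TRAP, where 18.8% of all genes reached it, and 2 in unbound, beside 30.9%. At 4-fold the counts were 0 (0.741% of all genes) and 1 (4.34%). Slc32a1 was 2.23-fold to 2.80-fold higher in TRAP over the 4 scalings, Slc12a2 4.26-fold to 5.36-fold higher in unbound, and Slc6a11 1.73-fold to 2.17-fold higher in unbound.

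Sequences upstream of the transcription start were matched by symbol in the RefSeq promoter windows of GRCm38.p6, where 7 of the 9 genes had an entry, Slc12a5 with 2 starts. On chromosome 2 lie 4 of the genes, Gad1, Gad2, Slc32a1 and Slc12a5. The 250 bases before the start are shown 5′ to 3′ for the 3 genes with the largest differences toward TRAP and for Slc6a11, which was higher in unbound. Capitals mark E-boxes (CANNTG, bound by basic helix-loop-helix factors) and the nuclear receptor half-site AGGTCA (the core recognised by RORA, a Purkinje cell factor), searched on both strands.
Gad1, chr2:70561879-70562128, plus strand: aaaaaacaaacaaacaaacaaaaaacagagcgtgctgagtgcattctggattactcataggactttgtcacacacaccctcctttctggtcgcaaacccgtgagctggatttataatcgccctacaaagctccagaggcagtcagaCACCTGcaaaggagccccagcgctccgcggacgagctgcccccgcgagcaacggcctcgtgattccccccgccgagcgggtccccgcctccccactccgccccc
Slc32a1, chr2:158610508-158610757, plus strand: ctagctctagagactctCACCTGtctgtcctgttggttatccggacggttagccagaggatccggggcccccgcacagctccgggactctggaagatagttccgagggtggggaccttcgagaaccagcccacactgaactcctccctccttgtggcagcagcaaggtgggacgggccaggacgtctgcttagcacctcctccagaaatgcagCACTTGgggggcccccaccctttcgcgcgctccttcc
Gabbr1, chr17:37045716-37045965, plus strand: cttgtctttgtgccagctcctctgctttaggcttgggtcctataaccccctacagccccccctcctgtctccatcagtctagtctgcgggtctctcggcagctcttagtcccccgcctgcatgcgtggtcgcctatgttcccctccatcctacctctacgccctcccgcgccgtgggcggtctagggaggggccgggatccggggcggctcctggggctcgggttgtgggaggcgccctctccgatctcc
Slc6a11, chr6:114130991-114131240, plus strand: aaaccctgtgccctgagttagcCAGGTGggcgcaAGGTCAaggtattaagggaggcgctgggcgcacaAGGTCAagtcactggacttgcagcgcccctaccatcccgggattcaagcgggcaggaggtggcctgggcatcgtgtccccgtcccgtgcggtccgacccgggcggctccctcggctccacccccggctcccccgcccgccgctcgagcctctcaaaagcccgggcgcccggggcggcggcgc
Of the 7 genes searched, 5 had at least 1 E-box in a window, as did 66.2% of all 32851 windows. Gad1 had 1 E-box and Slc32a1 had 2, and Gabbr1 had none. Of the 7 genes, AGGTCA occurred in the window of Slc6a11 alone, with 2 copies, while 14.02% of all windows held it. The letters TATAAA, searched on both strands as well, occurred in 1 of the 7 genes, Gad1, on the strand opposite to the one printed, and in 12.4% of all windows. The GC content of the windows printed was 58.0% for Gad1, 62.4% for Slc32a1, 66.0% for Gabbr1 and 71.2% for Slc6a11, against a median of 52.4%. These matches describe letters only, and no binding was measured.

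Other genes of GABA and glutamine metabolism were split evenly, with 5 of 10 higher in each fraction. All 10 passed the floor, 1 of them in unbound only. Of all genes, 44.1% were higher in TRAP above the floor and 57.6% without a floor. At 2-fold, none was higher in TRAP (8.11% of all genes above the floor) and 2 were higher in unbound (18.6%). The median difference was 0.13. Glul, the glutamine synthetase of astrocytes, read 9.18 in TRAP and 11.57 in unbound. Maob, a monoamine oxidase of glia, read 5.90 and 7.13. Got1, the cytosolic aspartate aminotransferase, read 12.48 and 11.60, and Odc1, the ornithine decarboxylase of polyamine synthesis, 10.77 and 10.19.

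Genes of GABA, glycine and glutamine transport beside the 9 were mostly higher in unbound. Of 9 measured, 8 were higher in unbound and 5 reached 2-fold there, with a median difference of -1.09. Of all genes without a floor, 57.6% were higher in TRAP and 11% were at least 2-fold higher in unbound. Slc38a3, a glutamine transporter of astrocytes, read 6.62 in TRAP and 8.64 in unbound, and Slc6a5, the neuronal glycine transporter of glycinergic cells, read 5.77 and 7.44. Slc6a13, the plasma membrane transporter GAT-2, read 6.42 and 7.24. Slc6a6, the taurine transporter, was the only gene of the 9 higher in TRAP, with 10.20 and 9.55. The TRAP values of Slc38a3, Slc6a5 and Slc6a13 lay below the floor. Slc6a5 is on the interneuron marker list as well.

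GABA-B receptor partners and effectors were split, with 9 of 18 measured higher in each fraction, where 57.6% of all genes were higher in TRAP. At 2-fold the counts were 0 toward TRAP (4.58% of all genes) and 6 toward unbound (11%). The median difference was 0.10 over all 18 and -0.02 over the 17 above the floor, where it was above 0 under all 3 other scalings. Ajap1, whose protein binds the extracellular part of the GABA-B receptor, read 10.21 in TRAP and 9.46 in unbound. Rgs7bp, which anchors the G protein regulator RGS7 at the membrane, read 12.32 and 11.67. At the other end Kctd12b, a relative of the auxiliary subunit KCTD12, read 5.51 and 7.78, and Gnai2, an inhibitory G protein alpha subunit, 9.90 and 11.75. The TRAP value of Kctd12b lay below the floor.

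Of the 16 GABA-A receptor subunit genes with a value, 11 were higher in unbound, 4 were higher in TRAP and 1 had the same value in both. Of all genes without a floor, 57.6% were higher in TRAP. At 2-fold there were 7 subunits in unbound, beside 11% of all genes, and the median difference was -0.94. The floor was passed on both arrays by 2 and in unbound only by 5, and the direction of these 5 was fixed by passing it. Of the 7 subunits at 2-fold, 6 were above the floor on at least 1 array and the other was below it on both. Gabrb2 read 8.65 in TRAP and 9.64 in unbound and Gabra3 6.72 and 8.17, while Gabrb1 (4.90 and 7.91) and Gabra2 (5.66 and 8.57) had the lowest differences. The TRAP values of Gabra3, Gabrb1 and Gabra2 lay below the floor. The granule neuron markers were also higher in unbound in 11 of 11 cases. Gabra6, 1 of the 2 subunits above the floor on both arrays, is on that marker list, so the lists share its value. The part of granule neurons in these values was not tested.

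Genes of the inhibitory synapse scaffold and of GABA-A receptor trafficking were found at both ends. All 17 measured passed the floor, 1 of them in unbound only. Among these, TRAP had the higher value for 10 and unbound for 7. The share of all genes higher in TRAP was 44.1% above the floor and 57.6% without a floor. The difference reached 2-fold for 2 of the 10 (8.11% of all genes above the floor) and 4 of the 7 (18.6%). The median difference was 0.13. Insyn1, encoding an inhibitory synaptic factor, read 10.38 in TRAP and 8.71 in unbound, and Iqsec3, a guanine nucleotide exchange factor of inhibitory synapses, read 10.76 and 9.23. Plcl1, an adaptor that binds GABA-A receptors, read 7.10 and 9.16, and Hap1, which takes part in the transport of these receptors, 7.40 and 9.32.

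Regulators and partners of the chloride cotransporters likewise had members at both ends. Of 15 measured, 7 were higher in TRAP, where 57.6% of all genes were, and 8 in unbound. At 2-fold there were 2 toward TRAP (4.58% of all genes) and 2 toward unbound (11%). The median of -0.23 was positive with the array medians subtracted and after quantile normalization. Car7, the neuronal carbonic anhydrase that supplies bicarbonate, the other anion passing GABA-A receptors, had values of 11.95 (TRAP) and 9.95 (unbound), a 3.99-fold difference. Car2, a second cytosolic carbonic anhydrase, read 10.91 and 9.59. Neto2, an auxiliary protein of KCC2 and of kainate receptors, read 9.49 and 11.37, and Wnk1, a kinase upstream of NKCC1 and KCC2, 8.67 and 9.82. The pair of Wnk1 probe sets disagreed in size, with differences of -0.40 and -1.89. Of 7 CLC chloride channels and exchangers with a value, 6 were higher in unbound, with a median difference of -0.86. At 2-fold there were 2 in unbound, beside 11% of all genes. Clcn4 and Clcn6 were above the floor on both arrays, with differences of -0.97 and -1.58. Clcn2, Clcn3 and Clcn5 passed it in unbound only, which fixed their direction, and their TRAP values were 6.82, 6.89 and 6.56 beside 7.35, 7.75 and 8.29 in unbound.

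Transcription factors of GABAergic lineages also lay on both sides. Of 14 measured, 8 were higher in TRAP, where 57.6% of all genes were, and the median difference was 0.19. Over the 9 above the floor, 1 of which passed it in unbound only, the median was -0.58, and it was 0.065 with a higher floor or a floor on the mean of the arrays. Skor2, a corepressor of Purkinje cells, read 9.47 in TRAP and 7.11 in unbound, and Lhx5, a LIM homeodomain factor of Purkinje cells, 9.96 and 8.97. Tfap2b, a factor of inhibitory interneurons, read 7.44 and 10.65, and Olig2, a factor of Purkinje progenitors and of the oligodendrocyte lineage, 7.91 and 9.84. Tfap2b, Pax2 and Tfap2a are on the interneuron marker list as well, and all 3 were higher in unbound.

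**Figure D4:**
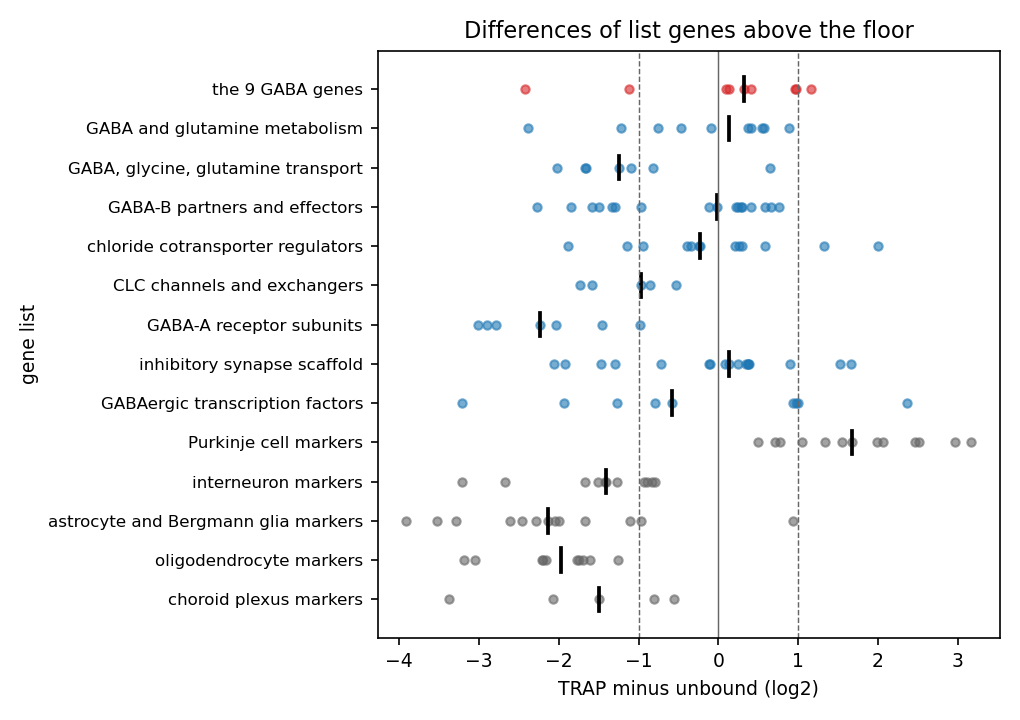
TRAP minus unbound (log2, horizontal axis) of each gene above the floor in the 9 GABA genes (red), in 8 related lists (blue) and in 5 marker lists (grey), with a black bar at each list's median and 2-fold as dashed lines. The 9 GABA genes have a median of 0.32 between the Purkinje markers (1.68) and the interneuron markers (-1.41). Genes that passed the floor on 1 array alone could only lie to that side.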

How the data were processed

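RNA of 1 TRAP and 1 unbound sample was measured on whole-transcript mouse arrays. The deposited table gives the authors' log2 values per probe set. Per the submitters' processing notes the tool was Affymetrix Power Tools. How background, normalization and summary were handled is not given in the sources used here, and the log base was inferred from the range of values. The 2 columns as listed have different distributions, which does not show whether an earlier step normalized them. Of 22097 probe sets, the platform annotation names 1 gene for 20999, several for 91 (left out) and none for 1007. RefSeq symbols (GRCm38.p6) matched 20959 by Entrez identifier. Probe sets were averaged per gene. The floor is the 50th percentile of all values, and lists other than the 9 genes are counted mainly without it. No scaling was applied in the main setting.

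The genes and lists were chosen with earlier results of these data known. Every one of the 9 genes is named. Of each related list the 2 lowest and 2 highest differences above the floor are named, or every gene where 5 or fewer are above it, and of a marker list at most the lowest and the highest. Beyond these, some genes are named that changed sign under another scaling or that 2 lists share. In all 225 other genes were listed, 209 of them with a value. No gene is named for likeness of pattern, because 2 arrays give 1 difference per gene. Other settings were array medians subtracted, quantile normalization, a loess trend removed (span 0.3), no floor, a floor applied to the mean of the arrays, the 75th percentile as floor, only the brightest probe set, and 1.5-fold and 4-fold. Scripts (Python 3.11.15, pandas 2.3.3, statsmodels 0.14.6) were tested on simulated data. The number of arrays limits the precision.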

Additional observations from a re-analysis of the deposited data

How the results depend on the processing

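No value was tested, so a change here means only that a number moved. The count of the 9 genes at least 2-fold higher in TRAP, 1 as deposited, was 3 with the array medians subtracted, 3 at 1.5-fold and 0 at 4-fold. The count higher in unbound, 2 as deposited, was 1 under each of the 3 other scalings, with the floor at the 75th percentile (7 of the 9 genes left) and at 4-fold. The median difference of the 9 genes, 0.32 as deposited, was 0.65 with the array medians subtracted, 0.31 after quantile normalization, 0.28 without the loess trend and 0.41 over the 7 genes above the higher floor. Using the brightest probe set changed none of the 9, each of which has 1 probe set. Of 56 medians of related lists under other settings, 11 changed sign. For GABA-B receptor partners and effectors (-0.02) it was 0.31 with medians subtracted, 0.19 after quantile normalization, 0.062 without the trend, 0.10 without a floor, 0.26 above the higher floor and 0.22 when the mean had to pass. For chloride cotransporter regulators (-0.23) it was 0.32 and 0.070 under the first 2 of these. For the transcription factors (-0.58) it was 0.19 without a floor and 0.065 (8 genes) with either of the last 2. The causes were not tested. Of 112 counts at 2-fold in these lists, 16 moved by more than 1.5 times. With medians subtracted, GABA and glutamine metabolism had 1 gene in each direction (0 in TRAP and 2 in unbound as deposited), transport 3 in unbound (from 5), GABA-B partners 1 in TRAP (from 0), cotransporter regulators 1 in unbound (from 2) and transcription factors 4 in TRAP (from 1). Quantile normalization gave 1 metabolism gene in unbound, and it and the loess removal 2 transcription factors in TRAP. The higher floor left, in unbound, 1 gene of metabolism, 3 of transport, 2 of GABA-B partners (from 6), 1 of the CLC genes (from 2) and 1 GABA-A subunit (from 6), and the floor on the mean 1 of metabolism. The brightest probe set gave 1 cotransporter regulator in unbound. Chosen after their values were seen, Pdxk, Gnb1, Rgs6, Stk39, Oxsr1, Shisa7 and Gabarap, all listed genes near 0, changed sign under at least 1 scaling. No paired analysis was possible because each fraction has 1 array.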
